A study of Mus musculus with 6 samples.

Results

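The oligodendrocyte lineage genes described here are Olig1, Olig2, Sox10, Pdgfra, Cspg4, Nkx2-2, Cldn11, Mbp and Cnp, which were taken by name and matched to their Entrez gene IDs. The list was chosen with earlier results of these data known. Shares over all tested genes given beside its counts are therefore description and not a test. All 9 were found among the 27179 genes of the count tables, and all 9 passed the filter on low counts that 14207 genes passed. RNA was sequenced from neural stem cells derived from the brains of male E14.5 mouse embryos on a C57BL/6 x FVB/N background. The cells were kept proliferating as adherent cultures on polyornithine and laminin, with EGF and bFGF at 20 ng/ml each. The 3 Smchd1 null libraries came from cells homozygous for the MommeD1 allele of Smchd1, a chromatin protein that takes part in gene silencing, and the 3 wild type libraries from Smchd1 wild-type cells. The labels do not say whether the replicates of a group were separate embryos or repeated samples of a culture, so every p-value measures the spread between these libraries only.

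Oligodendrocytes make the myelin of the brain and spinal cord. Olig1 and Olig2 are neighbouring genes for basic helix-loop-helix transcription factors. They are expressed in neural progenitors as well as in the oligodendrocyte lineage, and Olig2 is needed for the lineage to form. Neural stem cells grown with EGF and FGF usually express them. Commitment to the precursor stage is marked by Sox10, Pdgfra and Cspg4 (the NG2 proteoglycan), and PDGFRA is the receptor through which PDGF drives precursor division. Nkx2-2 is a homeodomain factor that times differentiation, and Cldn11, Mbp and Cnp encode a tight junction protein, the myelin basic protein and an enzyme of myelin membranes.

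The 6 libraries were not alike outside this gene set. Total counts ran from 18608881 to 23253367. In wild type replicate 3 the record of Entrez gene 100861531 took 44.6% of all counts, against 2.11% to 5.90% in the other libraries, and its effective depth after TMM scaling was 10.1 M counts, against 21.3 to 25.8 M. The sample names number the 3 null libraries 11, 12 and 13 and wild type replicate 3 as 14, while wild type replicates 1 and 2 are NPC_RNA_113 and NPC_RNA_114. Wild type replicate 3 is thus the only wild type library in the number range of the null libraries. What the numbers stand for is not stated in the labels. Among wild type libraries, the number range cannot be told apart from the share of record 100861531 or from the depth. Smchd1 itself stood at 30.3, 31.1 and 27.9 CPM in null cells and at 271, 260 and 232 CPM in wild type cells, so every library, wild type replicate 3 included, carried the Smchd1 level of its label.

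None of the 9 genes passed the test between Smchd1 null and wild type cells. The wild type libraries were split: wild type replicate 3 had levels near or above those of the null libraries for all 9 genes, while wild type replicates 1 and 2 lay below every null library for all 9, which was so for 31.1% of all tested genes. The null mean was 7.13-fold that of wild type replicates 1 and 2 for Pdgfra and 6.98-fold for Sox10, but 1.17-fold for Olig1 and 1.10-fold for Olig2. All levels below are CPM, counts scaled to the library's TMM-adjusted depth, unless a sentence says otherwise.

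**Figure D1:**
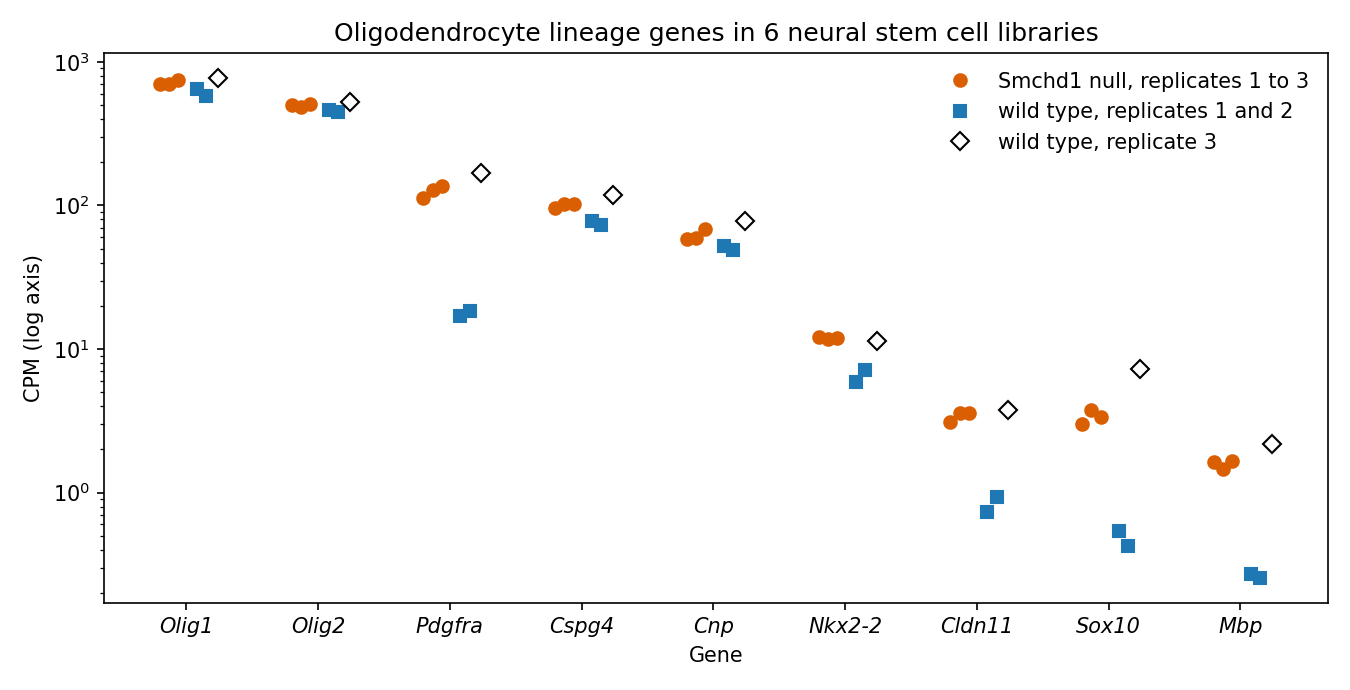
Level of each oligodendrocyte lineage gene in each library, in CPM on a log axis, with genes ordered by their mean in null cells. Orange circles are the 3 Smchd1 null libraries, blue squares wild type replicates 1 and 2, and the open diamond wild type replicate 3, which is the highest library for every gene except Nkx2-2.

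Promoter sequence is shown for Pdgfra, Cldn11, Nkx2-2 and Cnp, which differ widely in how far wild type replicates 1 and 2 lay below the other libraries. They are RefSeq promoter sequences of GRCm38.p6, the assembly behind mm10, starting 250 bases before the transcription start that the promoter table uses and ending at that start or at the nearest annotated exon base. For Pdgfra and Nkx2-2 that start lies inside the gene span given below, so their windows are internal to it. Capitals mark any match, on either strand, to CAGCTG or CAGATG (E-box letters of the kind bound by basic helix-loop-helix factors), ACAAAG or ACAATG (SOX-like letters) or TATAAA.
Pdgfra: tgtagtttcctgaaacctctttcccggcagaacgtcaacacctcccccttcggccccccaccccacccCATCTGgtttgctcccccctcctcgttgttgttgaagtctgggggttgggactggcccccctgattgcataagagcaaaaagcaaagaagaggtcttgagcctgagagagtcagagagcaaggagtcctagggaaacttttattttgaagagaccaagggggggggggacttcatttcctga
Cldn11: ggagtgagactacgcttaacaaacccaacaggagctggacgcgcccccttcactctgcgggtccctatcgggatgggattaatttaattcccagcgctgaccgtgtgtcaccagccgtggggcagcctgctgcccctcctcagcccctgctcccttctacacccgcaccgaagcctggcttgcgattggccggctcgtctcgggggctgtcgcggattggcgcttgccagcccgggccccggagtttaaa
Nkx2-2: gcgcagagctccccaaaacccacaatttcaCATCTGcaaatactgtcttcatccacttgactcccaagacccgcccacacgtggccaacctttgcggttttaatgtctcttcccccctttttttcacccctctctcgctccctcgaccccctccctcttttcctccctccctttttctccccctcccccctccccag
Cnp: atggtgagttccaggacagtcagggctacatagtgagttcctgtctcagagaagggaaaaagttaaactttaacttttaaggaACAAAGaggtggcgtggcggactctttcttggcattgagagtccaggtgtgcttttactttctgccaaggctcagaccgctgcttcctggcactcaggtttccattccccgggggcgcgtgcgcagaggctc
These lie at chr5:75152001-75152250 (plus strand), chr3:31149670-31149919 (plus strand), chr2:147186456-147186652 (minus strand) and chr11:100574689-100574903 (plus strand). Of the 6 genes with a promoter in the table, the 250 bases held CAGATG in 2 (Pdgfra and Nkx2-2), ACAAAG in 1 (Cnp), ACAATG and TATAAA in 1 each (both Olig2) and CAGCTG in 0. Over all 32851 promoters of that length, the shares were 14.4% for CAGATG, 16.5% for ACAAAG, 10.7% for ACAATG, 12.4% for TATAAA and 13% for CAGCTG. These matches describe letters and are not binding sites. Cldn11 and Cspg4 held none of these letters in the window.

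Compared per length, in FPKM, the transcription factors of progenitors were by far the most abundant. In null cells Olig1 averaged 331 ± 10.96 FPKM and Olig2 205 ± 4.603 FPKM, followed by Cnp at 23.2 ± 2.17, Pdgfra at 18.7 ± 1.87, Cspg4 at 12.5 ± 0.45, Nkx2-2 at 4.87 ± 0.07, Cldn11 at 1.83 ± 0.15, Sox10 at 1.25 ± 0.14 and Mbp at 0.235 ± 0.017 FPKM (mean ± SD, n = 3). No neighbours in that order overlapped among the null libraries. Wild type replicate 3 had almost the same order, with Pdgfra at 24.8 FPKM, except that Sox10 (2.67 FPKM) stood above Cldn11 (2.01 FPKM). In wild type replicates 1 and 2 Pdgfra stood at 2.54 and 2.72 FPKM, below Cspg4 (9.73 and 9.06 FPKM) and level with Nkx2-2 (2.41 and 2.93 FPKM), and these 2 neighbours overlapped. In all 6 libraries Olig1 and Olig2 were the highest of the 9 and Mbp the lowest.

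Olig1 (Entrez 50914, chromosome 16, 91269769 to 91271939, mm10) had 706, 705 and 746 CPM in null cells, against 649.9, 575 and 772 CPM in wild type replicates 1, 2 and 3. Olig2 (Entrez 50913, chromosome 16, 91225550 to 91228677) had 501, 488 and 510.3 CPM in null cells, against 465, 446 and 527 CPM in wild type replicates 1, 2 and 3. For both genes the null libraries fell between wild type replicate 3 above and wild type replicates 1 and 2 below, so the groups overlapped. The log2 fold changes were 0.11 ± 0.11 (SE, edgeR adjusted p = 0.561) for Olig1 and 0.06 ± 0.08 (adjusted p = 0.674) for Olig2. The number of Olig1 counts per 100 Olig2 counts, a ratio inside a library that no scaling changes, was 141, 144 and 146 in null cells and 139.7, 129 and 147 in wild type replicates 1, 2 and 3. The neighbours thus kept close to the same ratio in every library.

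Pdgfra (Entrez 18595, chromosome 5, 75151322 to 75198206) had the largest fold of null over wild type replicates 1 and 2. It had 112.6, 128 and 137 CPM in null cells, against 17.1, 18.3 and 167 CPM in wild type replicates 1, 2 and 3. The null libraries lay close together, and the wild type libraries lay on both sides of them. The log2 fold change was 0.96 ± 1.07 (SE, edgeR adjusted p = 0.641), an error larger than the difference. It was 2.05 with limma-voom, 0.48 without wild type replicate 1, 0.49 without wild type replicate 2 and 2.83 without wild type replicate 3. The null mean was 0.753-fold the level of wild type replicate 3. Per 100 Olig2 counts there were 22.5, 26.3 and 26.9 Pdgfra counts in null cells, against 3.67, 4.10 and 31.8 in wild type replicates 1, 2 and 3. Because this ratio is taken inside each library, the split in Pdgfra does not depend on the scaling of wild type replicate 3.

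Sox10 (Entrez 20665, chromosome 15, 79154913 to 79164490), the SRY-box factor that switches on myelin genes, was scarce. It had 3.01, 3.75 and 3.39 CPM in null cells, against 0.543, 0.426 and 7.24 CPM in wild type replicates 1, 2 and 3. These values rest on 64, 80 and 76 counts in null cells and on 14, 10 and 73 counts in wild type. Wild type replicate 3 was above every null library here, with an exact Poisson 95% interval of 5.68 to 9.11 CPM that does not reach the highest null interval, 2.97 to 4.67 CPM. Intervals of this kind cover counting error only. The log2 fold change was 0.64 ± 1.06 (SE, edgeR adjusted p = 0.747). It was 0.32 with DESeq2, 1.90 with limma-voom, 0.036 without wild type replicate 1, 0.037 without wild type replicate 2 and 2.78 without wild type replicate 3.

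Cspg4 (Entrez 121021, chromosome 9, 56865104 to 56899870), the other surface marker of precursors, moved far less than Pdgfra. It had 96.2, 103 and 102 CPM in null cells, against 78.3, 72.9 and 118 CPM in wild type replicates 1, 2 and 3. The log2 fold change was 0.17 ± 0.17 (SE, edgeR adjusted p = 0.588). There were 117, 125 and 135 Pdgfra counts per 100 Cspg4 counts in null cells, against 21.8, 25.1 and 142 in wild type replicates 1, 2 and 3. The pair of precursor markers was therefore not in a fixed ratio between libraries.

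Nkx2-2 (Entrez 18088, chromosome 2, 147176485 to 147195434) was the exception in 1 respect. It had 12.1, 11.8 and 11.9 CPM in null cells, against 5.89, 7.16 and 11.3 CPM in wild type replicates 1, 2 and 3. All null libraries lay above all wild type libraries, though above wild type replicate 3 only just. The log2 fold change was 0.60 ± 0.21 (SE, edgeR adjusted p = 0.213). Of all tested genes, 11.4% had every null library above every wild type library, so 1 of 9 is close to that background.

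Among the myelin genes, Cldn11 (Entrez 18417, chromosome 3, 31149920 to 31164326) had 3.10, 3.61 and 3.57 CPM in null cells, against 0.736, 0.938 and 3.77 CPM in wild type replicates 1, 2 and 3. Mbp (Entrez 17196, chromosome 18, 82475091 to 82585637) had 1.64, 1.45 and 1.65 CPM in null cells, against 0.271, 0.256 and 2.18 CPM in wild type replicates 1, 2 and 3. Both had wild type replicate 3 at or above the null libraries and wild type replicates 1 and 2 well below them. Mbp rested on 35, 31 and 37 counts in null cells, against 7, 6 and 22 in wild type replicates 1, 2 and 3, and its exact Poisson 95% interval in wild type replicate 1 was 0.109 to 0.559 CPM. The Mbp locus also encodes the golli proteins, which cells outside the lineage make, and a count per gene does not separate their transcripts from those of myelin basic protein. The log2 fold changes were 1.16 ± 0.54 (SE, edgeR adjusted p = 0.291) for Cldn11 and 1.24 ± 0.71 (adjusted p = 0.366) for Mbp. Without wild type replicate 1 they were 0.72 for Cldn11 and 0.70 for Mbp, and without wild type replicate 3 they were 2.03 and 2.56.

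Cnp (Entrez 12799, chromosome 11, 100574909 to 100591875) was the most abundant of the 3 myelin genes and differed least. It had 58.2, 59.5 and 68.9 CPM in null cells, against 51.9, 48.9 and 78.5 CPM in wild type replicates 1, 2 and 3. The log2 fold change was 0.07 ± 0.18 (SE, edgeR adjusted p = 0.839), and its sign turned to -0.01 without null replicate 3, to -0.02 without wild type replicate 1 and to -0.06 without wild type replicate 2. There were 2.82, 2.44 and 2.39 Mbp counts per 100 Cnp counts in null cells, against 0.523, 0.523 and 2.78 in wild type replicates 1, 2 and 3. Mbp and Cnp were thus not in a fixed ratio either.

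Over all 6 libraries, then, 0 of the 9 genes were called by edgeR, DESeq2 or limma-voom. DESeq2 gave no adjusted p for Pdgfra (log2 fold change 0.90), so it could not call that gene. Of all tested genes DESeq2 called 2.82% and limma-voom 0.894%. Limma-voom with sample quality weights called 8 of the 9 higher in null, a setting that called 36.4% of all tested genes. At an unadjusted p under 0.05 edgeR counted 1 of 9 (Nkx2-2), where 18.6% of all tested genes did so, and it called 0.577% of all tested genes (0.507% higher and 0.0704% lower). All 9 log2 fold changes were above 0, with a median of 0.60, where the median over all tested genes was 0.00. With DESeq2 the median of the 9 was 0.32. Without wild type replicate 3, all 9 were called higher in null, with log2 fold changes from 0.13 for Olig2 to 2.83 for Pdgfra (adjusted p = 5.99e-11). Of all tested genes 39.2% were called in that fit and 19.7% were called higher, so calls were common throughout the table. In that fit genotype and sample-name range cannot be told apart, since no wild type library numbered 11 to 14 is left.

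**Figure D2:**
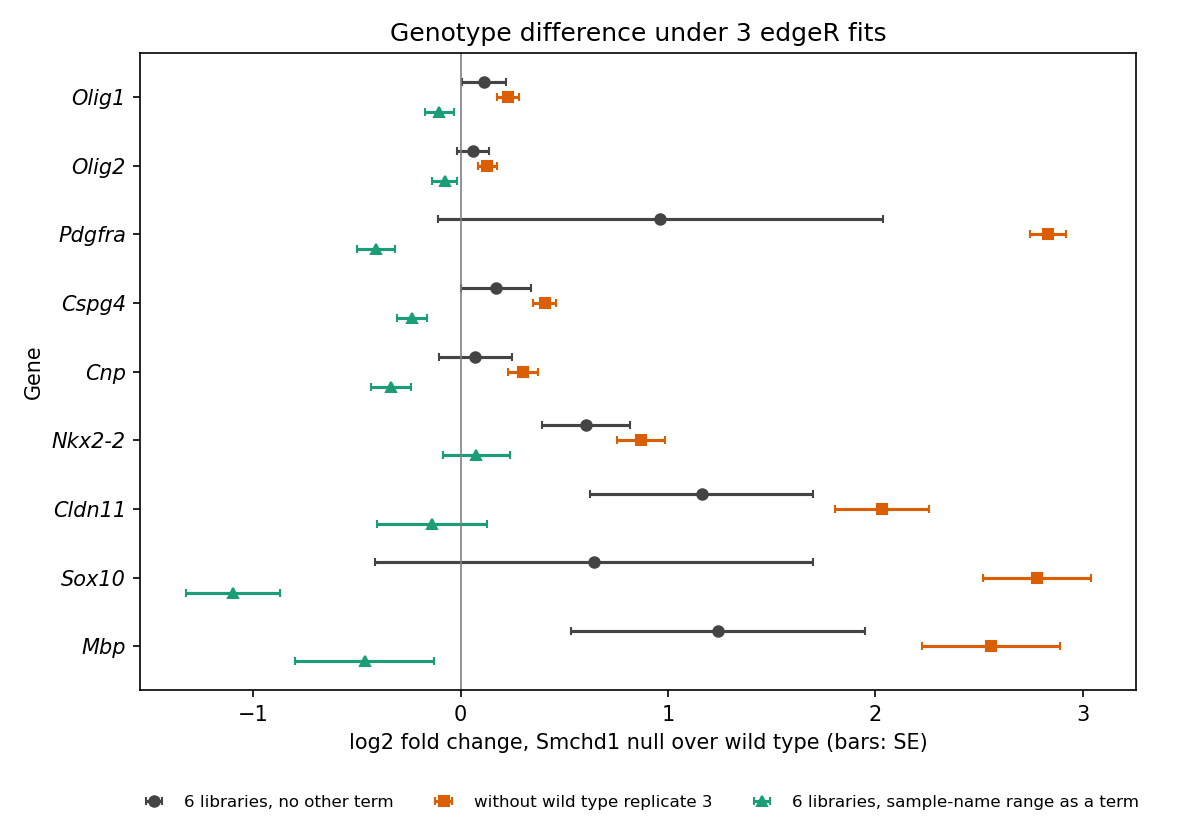
Log2 fold change of each gene, Smchd1 null over wild type, with its standard error, under 3 edgeR fits. With all 6 libraries (dark grey circles) the standard errors of Pdgfra and Sox10 are 1.07 and 1.06. Without wild type replicate 3 (orange squares) all 9 genes lie above 0. With the sample-name range as a term (green triangles) 8 of 9 lie below 0. That last fit sets the null libraries against wild type replicate 3 alone.

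A further fit had both genotype and sample-name range as terms. The range term sets libraries numbered 11 to 14 over the other 2, and rests on wild type replicate 3 against wild type replicates 1 and 2. Wild type replicate 3 is there a single library without a spread of its own. The standard errors and p-values take the spread among the other libraries. All 9 genes were called higher in the range 11 to 14, where 12.7% of all tested genes were. The range term was 3.88 ± 0.31 on the log2 scale for Sox10 (SE, edgeR adjusted p = 6.23e-07), 3.24 ± 0.11 for Pdgfra (adjusted p = 5.45e-10), 3.02 ± 0.46 for Mbp and 2.17 ± 0.34 for Cldn11. It was smaller for Nkx2-2 (0.80 ± 0.18), Cspg4 (0.64 ± 0.08), Cnp (0.64 ± 0.10), Olig1 (0.33 ± 0.07) and Olig2 (0.21 ± 0.06, adjusted p = 0.0230). The genes marking committed precursors and myelin thus differed more than the abundant progenitor factors, with Cspg4 and Cnp among the smaller differences.

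With that term, the genotype difference rests on the null libraries against wild type replicate 3 alone. It was below 0 for 8 of 9 genes. Sox10 was called lower in null (log2 fold change -1.10 ± 0.23 SE, edgeR adjusted p = 0.0231), 1 of 9 where 0.767% of all tested genes were called lower and 1.31% either way. DESeq2 did not call it (adjusted p = 0.169). Pdgfra was at -0.41 ± 0.09 (edgeR adjusted p = 0.0534) and passed with DESeq2 (adjusted p = 0.0295). Nkx2-2 was the gene above 0, at 0.08 ± 0.16 (edgeR adjusted p = 0.891). The median over the 9 genes was -0.24, where that over all tested genes was 0.00. Both terms use wild type replicate 3, so a high value there raises the range term and lowers the genotype term, and the opposite signs are not separate results. In the libraries numbered 11 to 14 alone, Sox10 (adjusted p = 0.00496) and Pdgfra (adjusted p = 0.0321) were called lower in null by edgeR, 2 of 9 where 1.69% of all tested genes were called lower and 2.55% either way. There wild type is a single library, assumed to vary as the null libraries do. The genotype term beside the range rests on the same libraries, so the fits are not separate results. No null library shares the number range of wild type replicates 1 and 2, so the genotype difference there was not measured.

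**Figure D3:**
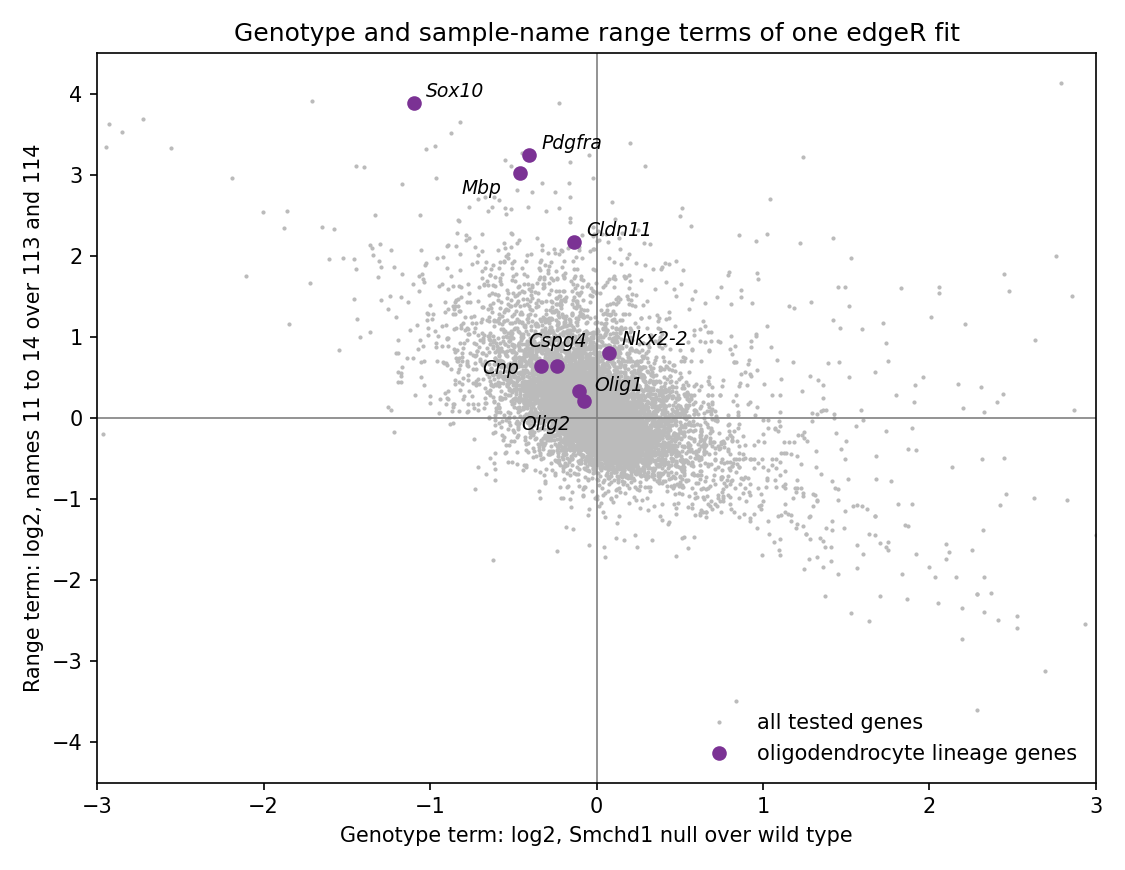
Range term against genotype term of 1 edgeR fit, on the log2 scale, for the 9 oligodendrocyte lineage genes (purple, named) and all tested genes (grey, with 34 genes outside the axes). All 9 genes lie above 0 on the range axis, from 0.21 for Olig2 to 3.88 for Sox10.

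In 8 of the 9 genes wild type replicate 3 was the highest of the 6 libraries, which was so for 22.6% of all tested genes. In all 9, every library numbered 11 to 14 lay above both of the others, which was so for 26.8% of all tested genes. The search for similar genes was limited to those averaging 1 or more in log2 CPM. Those whose levels most resembled the mean profile of the 9, by Pearson correlation over the 6 libraries, were Pde4b, Cpt1a, Scrg1, Thrsp, Enpp2 and Pnmal2 (r from 0.997 to 0.999 across libraries, given as a description). Enpp2, which encodes the enzyme autotaxin, had 16.0, 17.1 and 17.7 CPM in null cells, against 4.46, 3.62 and 26.9 CPM in wild type replicates 1, 2 and 3. Pde4b, a cyclic AMP phosphodiesterase gene, had 83.0, 83.4 and 87.6 CPM in null cells, against 65.9, 64.5 and 91.1 CPM in wild type replicates 1, 2 and 3. Such correlations share libraries and scaling, and they follow the split of the wild type libraries.

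Other genes of precursors mostly had the same split. Every library numbered 11 to 14 lay above wild type replicates 1 and 2 in 17 of 20, against 26.8% of all tested genes. That list has 24 genes, of which 20 were tested, and 0 were called between null and wild type by edgeR. At an unadjusted p under 0.05 there were 2 (Id2 and Bcan), against 18.6% of all tested genes. The median log2 fold change of the 20 was 0.27. On the range term 16 of 20 were called higher and 0 lower, against 12.7% and 11.9% of all tested genes. The median of that term was 0.85, against 0.01 over all tested genes. Lhfpl3, a gene of precursors, had 81.6, 78.5 and 82.3 CPM in null cells, against 29.3, 27.1 and 75.4 CPM in wild type replicates 1, 2 and 3. Bcan, which encodes the matrix proteoglycan brevican, had 212, 219.8 and 215 CPM in null cells, against 187, 180.4 and 201 CPM in wild type replicates 1, 2 and 3, and Id2, an inhibitor of basic helix-loop-helix factors, had 50.6, 47.4 and 46.6 CPM in null cells, against 39.0, 36.2 and 44.2 CPM in wild type replicates 1, 2 and 3. These 3 were named for the smallest p between genotypes in the list, and in each every null library lay above every wild type library. That was so for 3 of 20 tested genes of the list and for 11.4% of all tested genes. Bcan and Id2 did not pass the range term (edgeR adjusted p = 0.169 and 0.102).

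Many genes of mature oligodendrocytes were scarce. Of 25, 13 were tested and 12 did not pass the filter, among them Mag, Mal, Mobp, Opalin and Enpp6, none above 5 counts in any library. Of the 13 tested, 0 were called between null and wild type by edgeR. At an unadjusted p under 0.05 there were 4, against 18.6% of all tested genes. On the range term 5 were called higher and 0 lower, against 12.7% and 11.9% of all tested genes. Car2, a carbonic anhydrase gene, had 122, 125 and 132 CPM in null cells, against 87.6, 94.7 and 123 CPM in wild type replicates 1, 2 and 3. Tcf7l2, a transcription factor of differentiating oligodendrocytes and of other cells, had 12.8, 12.2 and 11.8 CPM in null cells, against 19.0, 15.9 and 17.7 CPM in wild type replicates 1, 2 and 3, and did not pass (log2 fold change -0.52 ± 0.10 SE, edgeR adjusted p = 0.0877). Itpr2, a calcium release channel gene, had 92.4, 89.4 and 82.6 CPM in null cells, against 101, 103 and 96.8 CPM in wild type replicates 1, 2 and 3. For Tcf7l2 and Itpr2 the null libraries were the 3 lowest, but these genes were named for their small p between genotypes. Of all tested genes, 22% had groups that did not overlap, in either direction.

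Growth signal genes did not show the split as a list. Every library numbered 11 to 14 lay above wild type replicates 1 and 2 in 4 of 19, against 26.8% of all tested genes. Of 24, 19 were tested and 0 were called between null and wild type by edgeR, with a median log2 fold change of -0.13. At an unadjusted p under 0.05 there were 7, against 18.6% of all tested genes. On the range term 3 were called higher and 4 lower, against 12.7% and 11.9% of all tested genes. Over the precursor, mature and growth signal lists together (20, 13 and 19 tested), DESeq2 called 0 higher and 4 lower between null and wild type. There limma-voom called 0 in either direction. Of all tested genes DESeq2 called 2.82% in either direction and limma-voom 0.894%. The ligand gene Pdgfa had 5.68, 5.29 and 5.71 CPM in null cells. In wild type replicates 1, 2 and 3 it had 6.94, 5.54 and 4.96 CPM, so Pdgfa did not have the split of Pdgfra. Pdgfb and Pdgfc, the other tested PDGF ligand genes of the list, had a reverse split. In both, every library numbered 11 to 14 lay below wild type replicates 1 and 2. Their range terms were -1.87 ± 0.55 and -0.46 ± 0.23 (SE) on the log2 scale. Pdgfb was called lower on that term and Pdgfc was not. Pdgfb was scarce, with 5 to 46 counts a library. Gli3, the main repressor among the Hedgehog effectors, had 13.1, 12.4 and 11.4 CPM in null cells, against 29.0, 29.7 and 13.7 CPM in wild type replicates 1, 2 and 3. Its split was the reverse of that of Pdgfra, and it was called lower on the range term (-1.10 on the log2 scale). Erbb2, a receptor of the EGF receptor family, had 16.0, 16.4 and 15.1 CPM in null cells, against 25.7, 23.8 and 17.5 CPM in wild type replicates 1, 2 and 3, and Cxcr4, a chemokine receptor, had 6.06, 8.86 and 6.73 CPM in null cells, against 10.0, 15.1 and 10.6 CPM in wild type replicates 1, 2 and 3.

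Markers of other cell types were measured beside these genes. Neural stem cell markers were high throughout: the 12 genes summed to 5340 to 5480 CPM in null cells, against 5354 to 5836 CPM in wild type, and Nes, the intermediate filament of neural stem cells, stood at 1154 to 1224 CPM in null cells, against 1219 to 1359 CPM in wild type. Fibroblast and pericyte markers, relevant because Pdgfra is also made by fibroblasts, summed to 47.5 to 66.2 CPM in null cells, against 48.6 to 53.3 CPM in wild type. Nearly all of that was Prrx1, and Dcn had at most 2 counts and Lum at most 4 counts in any library. Schwann and neural crest markers, relevant because those cells also make Sox10, summed to 436 to 458 CPM in null cells, against 432 to 471 CPM in wild type, mostly Gap43, with Foxd3 at most 2 counts in any library. Microglia markers summed to 1.97 to 2.48 CPM in null cells, against 1.86 to 3.03 CPM in wild type, with Itgam, Tmem119 and C1qa at 0 counts in all 6 libraries, and endothelial markers to 3.34 to 4.32 CPM in null cells, against 4.22 to 4.76 CPM in wild type, with Cdh5 at 0 counts in all 6. In none of these 5 lists were wild type replicates 1 and 2 the lowest libraries by summed level, and for stem cell markers they were the highest. By the median over genes, however, the 6 tested fibroblast and pericyte markers had them lowest, at -0.40 and -0.21 on the log2 scale around each gene's mean, against 0.09 to 0.20 in null cells and 0.17 in wild type replicate 3. Of these genes Col1a1 had 13, 10 and 10 counts in null cells, against 3, 4 and 6 in wild type replicates 1, 2 and 3, Col3a1 had 10, 17 and 23, against 5, 11 and 9, and Twist1 had 12, 15 and 12, against 11, 8 and 4. At such counts depth limits any comparison. Cdh19, a cadherin of Schwann precursors, had 14.2, 12.8 and 11.99 CPM in null cells, against 6.90, 8.02 and 8.93 CPM in wild type replicates 1, 2 and 3, and did not pass (edgeR adjusted p = 0.0617).

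Neuron and astrocyte markers had part of the split. Neuron markers summed to 1034 to 1064 CPM in null cells, against 1120.2 to 1159 CPM in wild type, mostly Map2. Of 11 tested, 7 had every library numbered 11 to 14 above both of the others, against 26.8% of all tested genes. Nefl, a neurofilament gene, was the 1 gene of all marker lists called between genotypes, with 2.82, 1.97 and 2.90 CPM in null cells, against 0.543, 0.725 and 0.893 CPM in wild type replicates 1, 2 and 3 (log2 fold change 1.89 ± 0.28 SE, edgeR adjusted p = 0.0228). The count of 1 became 0 with the range term, and without null replicate 1 or 3 or wild type replicate 1 or 2. Nefm had 5.03, 5.72 and 5.04 CPM in null cells, against 3.41, 2.73 and 3.57 CPM in wild type replicates 1, 2 and 3, and Gad1 had 1.41, 1.97 and 1.78 CPM, against 0.271, 0.554 and 1.09 CPM. For Nefl, Nefm and Gad1 the null libraries were the 3 highest, and wild type replicate 3 was the highest wild type library. These genes were named for the smallest p of their list. There 3 of 11 tested genes had every null library above every wild type library, against 11.4% of all tested genes. Astrocyte markers summed to 1242 to 1266 CPM in null cells, against 1120, 1168 and 1385 CPM in wild type replicates 1, 2 and 3. On the range term, where 12.7% of all tested genes were called higher and 11.9% lower, 6 of 10 were called higher and 2 lower. The 2 were Gja1, a gap junction gene at 55.5, 54.7 and 51.9 CPM in null cells, against 91.1, 106 and 60.2 CPM in wild type replicates 1, 2 and 3, and Glul, the glutamine synthetase gene at 92.3, 93.05 and 101 CPM, against 139, 142 and 112 CPM. The part of these cells in the levels of the lineage genes was not tested. In bulk RNA more cells of a type and more RNA per cell cannot be told apart.

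**Figure D4:**
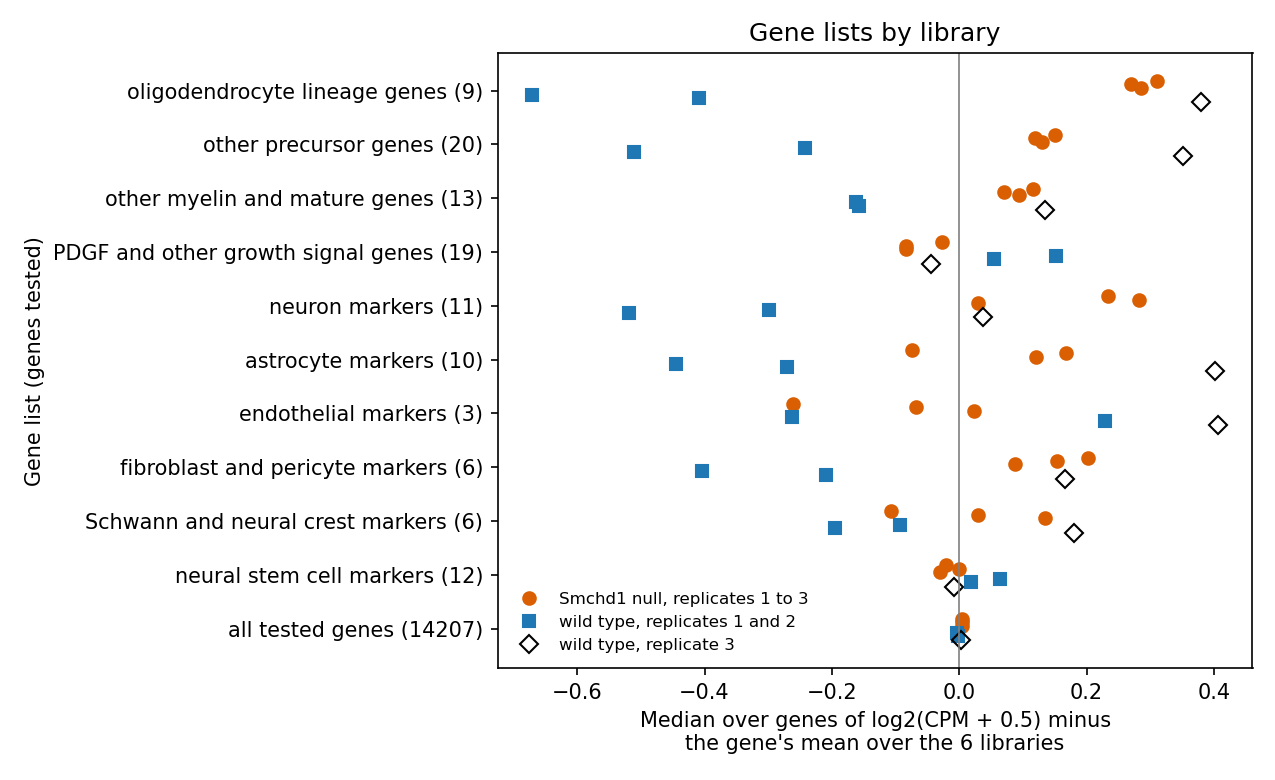
Median over the tested genes of each list of log2(CPM + 0.5) minus the gene's mean over the 6 libraries, by library, for lists with at least 3 tested genes. For the oligodendrocyte lineage genes wild type replicates 1 and 2 stand at -0.67 and -0.41, the null libraries between 0.27 and 0.31, and wild type replicate 3 at 0.38, while neural stem cell markers stay between -0.03 and 0.06.

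Reads of these libraries cannot be assigned to a strand, since the kit does not mark it. In GENCODE M21, Olig1 shares 157 exon bases with Gm15966 on the opposite strand, Pdgfra 456 with Gm42802 and 166 with Gm42803, Nkx2-2 278 with Nkx2-2os and Cnp 154 with Dnajc7. Olig2, Sox10, Cspg4 and Cldn11 overlap no other annotated gene there.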

How the data were processed

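RNA was sequenced from 3 Smchd1 null and 3 wild type libraries. The deposited values are raw counts per Entrez gene with a gene length, 1 table per library. Per the labels' protocols, 1 µg of total RNA per library went into the TruSeq RNA v2 kit. The submitters' processing notes name mm10 as the build and, with no role for each, featureCounts, CASAVA 1.8.2, limma 3.22.0 and edgeR 3.8.2. No source used here names an aligner, an annotation or a rule for reads that match several genes. Gene lengths, which the authors deposited under other column names, served for FPKM.

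Symbols and gene coordinates came from RefSeq's GRCm38.p6 table, which matched 25275 of 27179 IDs (93.0%). Total counts ran from 18608881 to 23253367 per library. Counts were filtered with filterByExpr (14207 genes kept), scaled by TMM and tested with the robust quasi-likelihood F-test of edgeR 4.0.16 in R 4.3.3, with Benjamini-Hochberg adjustment over all tested genes and a threshold of 0.05. Standard errors were derived from the F statistic. The tests were checked on simulated counts. Their spread came from a fit with the sample-name range as a term, so it did not include the split of the wild type libraries. The check therefore does not show how the genotype test performs with that split. Alternatives were DESeq2 1.42.0, limma-voom 3.58.1 with and without sample quality weights, other scalings and filters, thinning, a replicate block, the sample-name range and leaving out each library.

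The 9 genes and the 10 other lists were chosen with earlier results of these data known. Named genes were all 9, the 3 tested genes of each other list with the smallest p (not all of those from marker lists are printed), the 6 most alike in profile, and Smchd1. Others were chosen after their values were seen. No pair of libraries in a group was counted as 1 sample: the mean chi-square per gene was 7.26 at the least. The medians, however, were 0.877 to 1.22 among null pairs and for wild type replicates 1 and 2. For the pairs of wild type replicate 3 with replicates 1 and 2 they were 76.8 and 81.1. Whether the close libraries were separate samples is not settled by these values. Fits without wild type replicate 3 take their standard errors from those close libraries.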

Additional observations from a re-analysis of the deposited data

How the results depend on the processing

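The genotype result for the 9 genes rests on which wild type libraries are compared. Their count of calls higher in null was 0, and it became 8 with limma-voom sample quality weights, which called 36.4% of all tested genes, against 0.577%. The count of calls lower was 0, and it became 1 with the sample-name range as a term and 2 with the libraries named 11 to 14 only. Leaving out 1 library at a time gave 0 to 9 calls higher and 0 calls lower, with 9 without wild type replicate 3. The median log2 fold change of 0.60 became 0.32 with DESeq2, -0.24 with the range term and -0.24 in libraries 11 to 14 only, and ran from 0.038 (without wild type replicate 2) to 0.87 (without wild type replicate 3), with 0.09 without wild type replicate 1. The cause was not tested.

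With the range term and with libraries 11 to 14 only, 8 genes turned below 0: Olig1 at -0.10 in both, Olig2 at -0.077 and -0.078, Sox10 at -1.10, Pdgfra at -0.41, Cspg4 at -0.24, Cldn11 at -0.14, Mbp at -0.46 and Cnp at -0.33 and -0.34. Cnp also turned without null replicate 3 (-0.01), wild type replicate 1 (-0.02) or 2 (-0.056), and ran up to 0.30 without wild type replicate 3. No other setting turned a gene, and no scaling did. The range term and libraries 11 to 14 only both set null against wild type replicate 3 alone, so they are not separate results.

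On the range term 9 genes were called higher under all 9 alternatives except without a filter, where Olig2 missed (adjusted p = 0.0579). The count called lower on the genotype term beside it was 1, became 2 without robust moderation and 3 without a filter. In the precursor, mature and growth signal lists together, 20, 13 and 19 genes were tested in the main fit and 0 were called. Calls higher became 23 and lower 10 with quality weights. Those lower became 4 with DESeq2, 1 without a filter and 2 with the range term. Leaving out a library gave 0 to 26 higher and 0 to 10 lower. In the marker lists 1 call higher became 2 with DESeq2, 2 with limma-voom, 18 with quality weights and 3 without a filter. It became 0 with the replicate block and 0 with the range term, with 0 to 21 on leaving out a library. Calls lower became 3, 10, 1 and 1 with DESeq2, quality weights, no filter and the range term. Leaving out a library gave 0 to 10 lower. The main fit tested 11 neuron, 10 astrocyte, 12 stem cell, 6 fibroblast and pericyte, 6 Schwann and neural crest, 3 endothelial and 1 microglia markers. Of all tested genes it called 0.577%, DESeq2 2.82%, limma-voom 0.894%, no filter 1.05%, the replicate block 0.38% and the range term 1.31%. Quality weights called 36.4% and the fit without wild type replicate 3 called 39.2%, so calls there were common throughout the table.

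Replicate numbers did not pair the libraries (correlations of same-numbered deviations 0.00, 0.02 and -0.06). The replicate block left 0 members called, a median of 0.62, and 54 genes called in all, against 82.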

Other observations

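Some scarce markers of differentiated cells had the split of Pdgfra, and were chosen after their values were seen. Gfap, the filament gene of astrocytes, had 0.611, 0.609 and 0.624 CPM in null cells, against 0.116, 0.0426 and 1.09 CPM in wild type replicates 1, 2 and 3, from 1 to 14 counts a library. Aqp4, the water channel of astrocytes, had 0.94, 1.59 and 1.43 CPM in null cells, against 0.194, 0.469 and 2.58 CPM. Dcx, a microtubule protein of young neurons, had 3.19, 4.03 and 4.15 CPM in null cells, against 0.814, 0.384 and 5.56 CPM. Gpr17, a receptor of precursors about to differentiate, had 1.83, 2.20 and 3.79 CPM in null cells, against 0.271, 0.298 and 6.95 CPM. These values chose the genes, so no test of the split is given. The astrocyte and neuron lists were mixed on the sample-name range term, where 12.7% of all tested genes were called higher and 11.9% lower. There 6 of 10 astrocyte markers were called higher and 2 lower, and 2 of 11 neuron markers were called higher and 1 lower. In the precursor list, which holds Gpr17, 16 of 20 were called higher and 0 lower. None of the 4 was called between null and wild type by edgeR over all 6 libraries.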
